A study of Mus musculus with 8 samples.

Results

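Expression of 8 genes of purine signalling, which handle or sense ATP, AMP or adenosine or, like P2ry10, belong to a receptor family named for it, was followed from naive CD4 T cells into effector Th1, Th2 and Th17 cells. The genes were taken by name, as the rows of the deposited tables whose gene identifier was Entpd1, Nt5e, P2rx4, P2rx7, P2ry10, Adora2a, Ada or Adk, out of 23284 gene symbols, and each of the 8 was found on a single row. All 8 reached the mean of 1 FPKM (fragments counted for a gene, scaled to the length of its exons and to the depth of its library) that a gene needed to be tested, as did 11198 genes in all. There were 8 libraries, 2 in each of 4 groups, and every library came from mice carrying the DO11.10 transgene, which encodes a T cell receptor that recognizes a peptide of ovalbumin. Naive cells were sorted from spleen as CD4+ cells of naive surface phenotype, low in CD44, and were not cultured. The effector groups started from cells sorted in that way and were cultured for 6 days with the ovalbumin peptide and irradiated, T cell-depleted splenocytes, so that all effector groups shared the culture and the stimulus that the naive group lacked. For Th1 cells the medium held 30 U/ml IL-2 and 100 U/ml IL-12, with 1 µg/ml of an antibody to IL-4. For Th2 cells it held 30 U/ml IL-2 and 100 U/ml IL-4, with 10 µg/ml of an antibody to IFN-γ. For Th17 cultures, IL-6, IL-1β and IL-23 were each given at 10 ng/ml with antibodies to IL-4 and to IFN-γ, each at 10 µg/ml, and no IL-2 is listed. Mice were between 6 and 12 weeks old. Their sex is not stated in the labels, nor is whether the 2 libraries of a group came from separate mice or cultures, so the p-values given here measure the spread between these libraries, which may be technical.

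Cells under activation or stress release ATP, which opens P2X ion channels and engages P2Y receptors. On the cell surface CD39, the product of Entpd1, cuts ATP and ADP to AMP, and CD73, the product of Nt5e, cuts AMP to adenosine. Adenosine acts through G protein-coupled receptors, of which the A2a receptor restrains T cell activation, until adenosine deaminase (Ada) converts it to inosine or adenosine kinase (Adk) returns it to AMP inside the cell.

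The intervals that Cufflinks gave for each FPKM value imply between 14463538 and 21058108 fragments per library if they reflect counting error, with the naive libraries the shallowest. Tcf7, a gene of naive T cells, was at 735 and 741 FPKM in naive libraries and at no more than 67.3 FPKM in effector libraries. Lineage genes matched the labels: Tbx21 and Ifng together summed to 665 and 847 FPKM in Th1 libraries and to at most 3.85 FPKM elsewhere, and Il17a was at 347 and 335 FPKM in Th17 libraries against at most 0.711 FPKM elsewhere. Gata3, Il4 and Il13 summed to 373 and 406 FPKM in Th2 libraries against at most 26.2 FPKM in the other groups. Genes of other cells were also listed. Cd8b1, of CD8 T cells, was at 90.5 and 52.8 FPKM in the naive libraries and at 8.77 to 12.9 FPKM in effector libraries. Cd8a, the other CD8 T cell marker, was far lower, at 2.94 and 1.77 FPKM in naive and 0.0113 to 0.268 FPKM in effector libraries. Of the neutrophil list, Mpo and Elane were at 2.46 to 4.89 FPKM in the 3 effector libraries of replicate number 1 and at 0 to 0.106 FPKM in those of number 2. The rest of that list did not follow them. S100a8 was at 0.174 to 0.663 FPKM in the effector libraries of number 1 and at 0 to 0.439 FPKM in those of number 2, and S100a9 was at 0 in every effector library. In bulk RNA, fewer cells expressing a gene and less RNA per cell cannot be told apart.

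All 8 genes passed the threshold in at least 1 comparison between effector subsets, as did 59.9% of all tested genes, and no pair of groups had the same direction for all of them. Relative to naive cells, Th1 cells had 2 of the genes higher (Entpd1 and Adora2a) and 3 lower (Nt5e, P2rx4 and Ada), where 33.8% of all tested genes passed as higher and 33.5% as lower. In Th2 cells all 8 passed, with Entpd1, P2rx4, P2ry10 and Adk higher and Nt5e, P2rx7, Adora2a and Ada lower, against 31.8% and 38.7% of all tested genes. Th17 cells had Entpd1 and Adk higher and Nt5e, P2rx7, P2ry10 and Ada lower, against 37.5% and 29.8%. With so many genes past the threshold, these counts say little about the 8 genes as a group. The comparisons with naive cells share the naive libraries. Counts here and between subsets include Entpd1 and Nt5e, which passed the filter only through the groups where they were high.

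Between effector subsets the background was lower. Against Th2 cells, Th1 cells had 4 of the genes higher (Entpd1, P2rx7, Adora2a and Ada) and 3 lower (P2rx4, P2ry10 and Adk), where 27.4% of all tested genes were higher and 16.9% lower. Th17 cells against Th2 cells had Nt5e and Adora2a higher and Entpd1, P2ry10 and Adk lower, against 31.7% and 12%. Th1 cells against Th17 cells had 4 higher (Entpd1, P2rx7, Adora2a and Ada) and 2 lower (Nt5e and P2rx4), against 9.17% and 16.0%. The median difference of the 8 genes was 0.54 on the log2(FPKM + 1) scale in this last comparison, beside -0.08 over all tested genes, 0.68 beside 0.11 in Th1 against Th2, and -0.02 beside 0.18 in Th17 against Th2. Against naive cells it lay below the median of all tested genes in each subset, at -0.24 beside -0.01 in Th1, -0.43 beside -0.11 in Th2 and -0.12 beside 0.08 in Th17. Over all tested genes the median moved by -0.11 in Th2 against naive and by 0.18 in Th17 against Th2 as deposited, so small differences there are to be read against that shift. Without the 3 effector libraries of replicate number 1, where Mpo and Elane were highest, none of the 48 differences of the 8 genes changed direction. The naive library of number 1, with Mpo at 0.373 FPKM, was kept. With a single library left in each effector group, calls were lost among all tested genes as well as among these, so they are not counted.

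**Figure D1:**
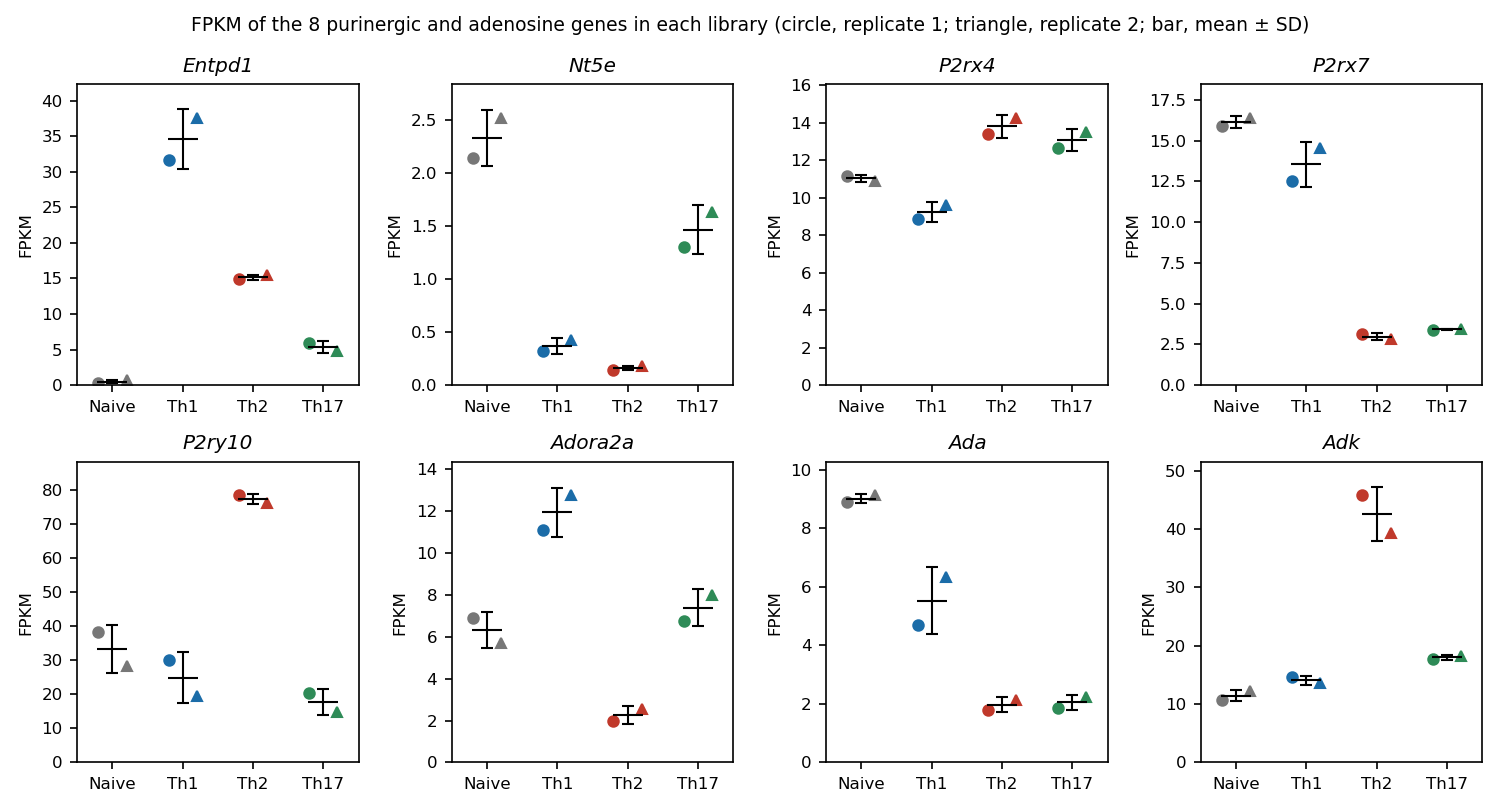
FPKM (vertical axes, linear, from 0) of the 8 genes in each group, with circles for replicate 1, triangles for replicate 2 and a bar for the mean with its SD over 2 libraries. Entpd1 is highest in Th1 libraries (31.6 and 37.6 FPKM), P2ry10 and Adk are highest in Th2 libraries, and P2rx7 and Ada are low in both Th2 and Th17 libraries.

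Entpd1, which encodes the ectonucleotidase CD39 (chr19:40659794-40741602 in mm10, plus strand), had the largest difference of the 8 genes. Naive libraries had FPKM values of 0.317 and 0.681, Th1 libraries of 31.6 and 37.6, Th2 libraries of 14.9 and 15.4, and Th17 libraries of 5.99 and 4.75. The 4 groups did not overlap, and the order Th1, Th2, Th17, naive held in every library. The mean of Th1 cells was 69.3 times that of naive cells, that of Th2 cells 30.3 times and that of Th17 cells 10.8 times, on naive values that rest on only 29 and 62 implied fragments, and the gene passed the filter through the effector libraries. On the log2(FPKM + 1) scale, Entpd1 was higher than in naive cells by 4.57 in Th1 (SE 0.16, limma adjusted p = 8.47e-07), by 3.44 in Th2 (adjusted p = 2.43e-06) and by 2.09 in Th17 (adjusted p = 2.84e-05). Neighbours in the order also differed, Th1 from Th2 by 1.14 (limma adjusted p = 0.00155) and Th17 from Th2 by -1.35 (adjusted p = 0.000944). Antigen-presenting cells express Entpd1 too. Of 6 B cell markers the summed level was lowest in Th1 libraries (2.50 to 3.35 FPKM, against 7.19 to 12.9 FPKM in the other groups), and of 6 monocyte and macrophage markers it was also lowest there (12.3 to 13.7 FPKM, against 18.2 to 34.1 FPKM). None of those markers was at 0 in both Th1 libraries, and Cd14 was higher there (2.54 and 2.96 FPKM) than in naive libraries (0.203 and 0.475). Of 6 dendritic cell markers the sum was higher in Th1 (1.24 to 1.36 FPKM) than in naive libraries (0.728 to 0.815 FPKM) and higher still in Th2 and Th17 (2.73 to 3.93 FPKM), with Siglech at 0 in both Th1 libraries and Xcr1 at 0.844 and 0.902 FPKM there against at most 0.117 FPKM elsewhere. The part of these cells in the Entpd1 result was not tested.

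Nt5e, which encodes the AMP-hydrolysing enzyme CD73 (chr9:88327609-88372089, plus strand), ran the other way. Naive libraries held 2.15 and 2.52 FPKM, Th1 libraries 0.318 and 0.425, Th2 libraries 0.145 and 0.177, and Th17 libraries 1.3 and 1.63. The gene was low throughout, passed the filter through the naive and Th17 libraries, and had 15 to 42 implied fragments in the Th1 and Th2 libraries. Levels fell relative to naive cells by 1.28 in Th1 (SE 0.13, limma adjusted p = 0.000112) and by 1.52 in Th2 (adjusted p = 4.01e-05) on the log2(FPKM + 1) scale. The Th17 difference was smaller, at -0.43 (limma adjusted p = 0.0182), and missed the threshold with a pseudocount of 0.1 (adjusted p = 0.0709), without the second naive library (adjusted p = 0.0613) or without the first Th17 library (adjusted p = 0.0583). Th17 cells were above Th2 cells by 1.08 (limma adjusted p = 0.000869) and above Th1 cells, the difference of Th1 against Th17 being -0.85 (adjusted p = 0.00324). Th1 and Th2 libraries did not overlap but their difference of 0.24 did not pass (limma adjusted p = 0.167), except with the pseudocount of 0.1 or a fit to these groups alone (adjusted p = 0.04 and 0.044).

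Foxp3, the factor that defines regulatory T cells, took the same order of groups as Nt5e. It was at 6.68 and 12.8 FPKM in naive libraries, 3.03 and 5.76 in Th17, 0.874 and 1.13 in Th1, and 0.423 and 0.541 in Th2. The 4 regulatory T cell markers together (Foxp3, Ikzf2, Ikzf4 and Nrp1) did not take that order, with sums of 10.3 to 19.1 FPKM in naive cells, 17.1 to 18.2 in Th1, 13.4 to 17.9 in Th2 and 25.1 to 32.4 in Th17 libraries, and none was at 0 in any group. Their part in the Nt5e result was not tested.

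Set against each other, the enzymes of this cascade changed places. The FPKM ratio of Entpd1 to Nt5e was 0.148 and 0.270 for the naive pair, 88.3 and 99.5 for Th1 cells, 87.2 and 102 for Th2 cells, and 2.91 and 4.6 for Th17 libraries. Th1 and Th2 ratios overlapped, although both means were lower in Th2. Those ratios are imprecise, since Nt5e had 15 to 42 implied fragments there and intervals of 30.9% to 51.6% to each side. The naive ratios rest on 29 and 62 implied fragments of Entpd1. Over the 8 libraries, log2(FPKM + 1) of the enzymes had a Pearson r of -0.899, given as a description because the points share 4 groups.

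The other ectoenzymes of the pathway were mostly low. Entpd3, another ATP- and ADP-cutting ectoenzyme, was at 3.59 and 4.47 FPKM in Th2 libraries and at 0 to 0.162 FPKM in all others, and so passed the filter through Th2 alone. Enpp1, a nucleotide pyrophosphatase, was also highest in Th2, at 6.39 and 7.27 FPKM against 2.20 and 2.88 FPKM in naive libraries (difference 1.15, limma adjusted p = 0.00022). Acpp, an acid phosphatase that can release adenosine from AMP, fell in all 3 effector groups with Nt5e, from 5.36 and 5.67 FPKM in naive libraries to between 1.52 and 1.87 FPKM. Among enzymes that consume NAD outside the cell, Bst1 was at 44.9 and 42.5 FPKM in Th1 and 6.50 and 6.39 FPKM in Th17 libraries but at most 0.722 FPKM in Th2 and 0.0206 FPKM in naive libraries. Cd38 was highest in Th1 (2.62 and 3.64 FPKM), and Art2b, an ADP-ribosyltransferase that can gate P2X7, was at 2.95 and 5.01 FPKM in naive libraries and no higher than 0.349 FPKM in effector libraries. Entpd8 and Enpp3 were under 1 FPKM in every library.

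P2rx7 encodes the P2X7 channel, which opens at high ATP concentrations (chr5:122643911-122691432, plus strand). Its values were 15.9 and 16.4 FPKM in naive cells, 12.5 and 14.5 in Th1 cells, 3.11 and 2.83 in Th2 cells, and 3.39 and 3.44 in Th17 libraries. The libraries fell into a high pair of groups, naive and Th1, and a low pair, Th2 and Th17. On the log2(FPKM + 1) scale P2rx7 fell relative to naive cells by 2.11 in Th2 (SE 0.10, limma adjusted p = 2.52e-06) and by 1.96 in Th17 (adjusted p = 3.77e-06), and it was higher in Th1 than in Th2 by 1.87 (adjusted p = 2e-05) and than in Th17 by 1.72 (adjusted p = 5.14e-05). Within each pair the difference did not pass, at -0.24 for Th1 against naive (limma adjusted p = 0.0645) and 0.15 for Th17 against Th2 (adjusted p = 0.241), although the libraries did not overlap. Th1 against naive did pass with quantile normalization (limma adjusted p = 0.0496) or without the second Th1 library (adjusted p = 0.0486). The deposited intervals for P2rx7 were wide, between 6.43% and 40.7% of the value to each side. Mir8115 overlaps 119 bases of its exons on the same strand, which is 2.0% of them.

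P2rx4, the gene of another ATP-gated channel, starts 16124 bases beyond the end of P2rx7 on the same strand (chr5:122707557-122729042). It varied least of the 8, with 11.2 and 10.9 FPKM in naive cells, 8.85 and 9.60 in Th1 cells, 13.4 and 14.3 in Th2 cells, and 12.7 and 13.5 in Th17 libraries. The Th2 and Th17 libraries overlapped, and Th1 libraries were below all others. Th1 against Th2 was -0.54 (SE 0.09, limma adjusted p = 0.0031). Th1 against Th17 was -0.46 (limma adjusted p = 0.00948), a call lost on the TPM scale (adjusted p = 0.0789), without the first Th1 library (adjusted p = 0.0716) or without the second Th17 library (adjusted p = 0.0707). Th2 was above naive by 0.30 (limma adjusted p = 0.0183), while the median of all tested genes moved the other way, by -0.11. That P2rx4 call was lost on the TPM scale (limma adjusted p = 0.167) or in a fit to these groups alone (adjusted p = 0.0594). It was also lost without the second naive library (adjusted p = 0.0723) or without the second Th2 library (adjusted p = 0.0823). The call of -0.24 in Th1 against naive (limma adjusted p = 0.0472) was lost in 14 of 20 alternative analyses, with adjusted p between 0.0257 and 0.32. Th17 against naive, at 0.23, did not pass (limma adjusted p = 0.0548) but did with the replicate number as a block (adjusted p = 0.0302). While these neighbouring genes lie on the same strand, their levels had a Pearson r of -0.854 over the 8 libraries, as a description.

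Of the other P2X channels, P2rx3 was high in Th1 libraries alone. It was at 33.1 and 46.7 FPKM there and between 0.0438 and 0.172 FPKM in all others, and it passed the filter through the Th1 libraries only. Its transcript made up 60.5% and 65.8% of the summed FPKM of all P2X genes in Th1 libraries, where P2rx7 made up 22.9% and 20.5% and P2rx4 16.2% and 13.5%. In naive libraries P2rx7 led with 58.3% and 59.2%, and in Th2 and Th17 libraries P2rx4 led with 73.7% to 81.4%. The ratio of P2rx7 to P2rx4 was 1.42 and 1.51 in naive and also 1.42 and 1.51 in Th1 libraries, and 0.198 to 0.268 in Th2 and Th17 libraries. P2rx1, P2rx2, P2rx5 and P2rx6 were under 1 FPKM in every library. Ssrp1 overlaps 51 bases of the exons of P2rx3 on the opposite strand, 1.8% of them.

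**Figure D2:**
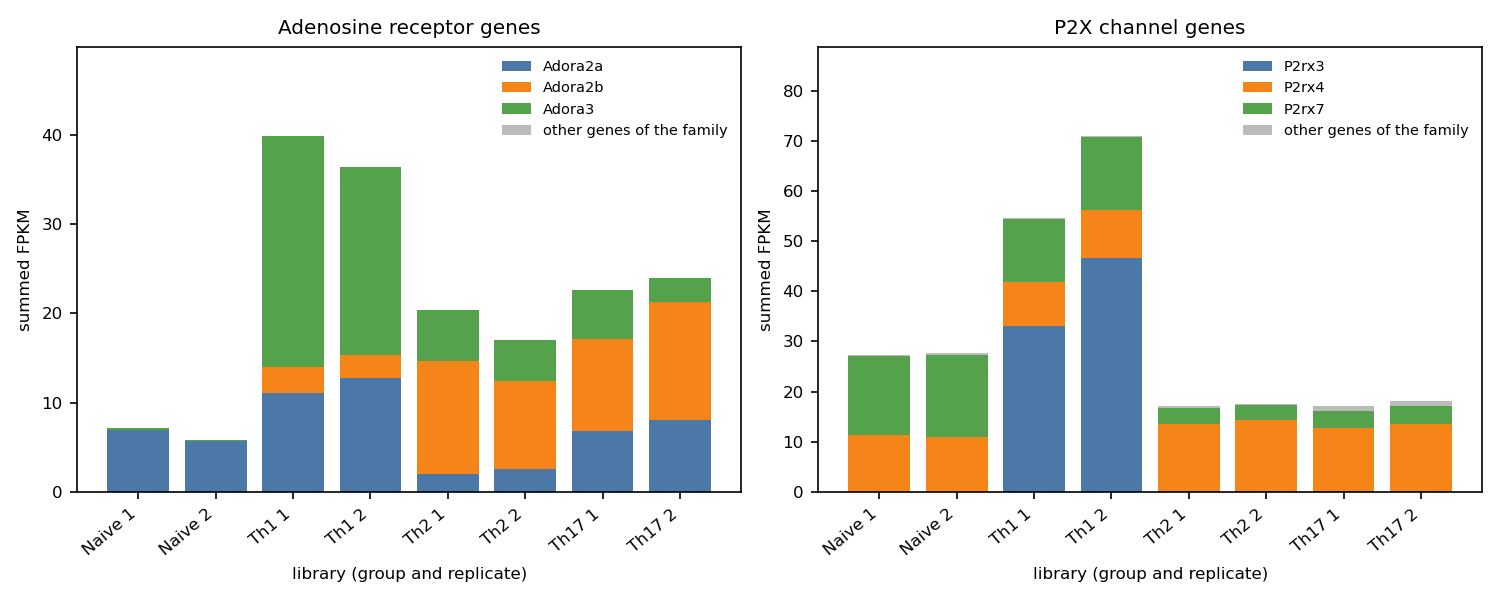
Summed FPKM (vertical axes, linear, from 0) of the adenosine receptor genes (left) and the P2X channel genes (right) in each library, with stacked bars split by gene. Adora2a makes up nearly all of the naive bars (96.5% and 99.0%), Adora3 leads in Th1 and Adora2b in Th2 and Th17, while P2rx3 fills most of the Th1 bars of P2X genes. The Adora3 part is uncertain, because its deposited row runs past the end of the annotated gene.

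P2ry10, a G protein-coupled receptor placed in the P2Y family by sequence and known to respond to lysophospholipids (chrX:107089335-107104970, plus strand), was the most abundant of the 8 genes in Th2 cells. Its FPKM was 38.4 and 28.4 in naive cells, 30.2 and 19.5 in Th1 cells, 78.4 and 76.3 in Th2 cells, and 20.4 and 14.9 in Th17 libraries. Only the Th2 libraries stood clear of all others. Naive libraries overlapped those of Th1, and Th1 overlapped those of Th17. On the log2(FPKM + 1) scale Th2 was above naive by 1.2 (SE 0.24, limma adjusted p = 0.00354), Th1 against Th2 was -1.63 (adjusted p = 0.00202) and Th17 against Th2 was -2.09 (adjusted p = 0.00089). Th17 against naive was -0.88 (limma adjusted p = 0.015), a call that was lost without the first naive library (adjusted p = 0.0868) or the second Th17 library (adjusted p = 0.0957). In each of the 4 groups the library of replicate number 1 was the higher. With the replicate number as a block, differences that had not passed did so, at -0.43 for Th1 against naive (limma adjusted p = 0.158, with the block 0.0277) and 0.45 for Th1 against Th17 (adjusted p = 0.232, with the block 0.0463).

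Among its relatives, A630033H20Rik, a symbol for P2ry10b, was at 5.95 and 6.28 FPKM in Th2 and 3.74 and 2.66 FPKM in Th17 libraries, its largest difference (-0.77, limma adjusted p = 0.0328). P2ry10 shares 113 of its 2979 sequence words of 50 bases with it, 3.79%, so reads of these genes can be partly exchanged. P2ry14, a receptor for UDP-glucose, was at 37.2 and 41.7 FPKM in Th1, 5.44 and 7.02 in Th17 and at most 1.04 FPKM in naive and Th2 libraries. P2ry1, P2ry4, P2ry6, P2ry12 and P2ry13 were under 1 FPKM in every library.

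Adora2a, the gene of the A2a adenosine receptor (chr10:75316943-75334788, plus strand), was highest in Th1 and lowest in Th2 cells. Libraries held 6.91 and 5.71 FPKM in naive cells, 11.1 and 12.8 in Th1 cells, 1.97 and 2.55 in Th2 cells, and 6.76 and 8.0 in Th17. Naive and Th17 libraries overlapped and the other groups stood apart. Relative to naive cells it rose in Th1 by 0.82 (SE 0.14, limma adjusted p = 0.00199) and fell by 1.17 in Th2 (adjusted p = 0.000316) on the log2(FPKM + 1) scale, and the Th17 difference of 0.20 did not pass (adjusted p = 0.261). Th1 exceeded Th2 by 1.99 (limma adjusted p = 8.07e-05), and Th17 exceeded Th2 by 1.36 (adjusted p = 0.000621). Th1 exceeded Th17 by 0.63 (limma adjusted p = 0.0205), a call lost when any of the 4 libraries of these groups was left out (adjusted p between 0.053 and 0.122) and on the TPM scale (adjusted p = 0.0693).

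Other adenosine receptors appeared in effector cells. Adora2b, the low-affinity A2b receptor, was listed at 0 in both naive libraries, and was at 2.91 and 2.57 FPKM in Th1 cells, 12.7 and 9.82 in Th2 cells, and 10.4 and 13.2 in Th17 libraries. Adora3, the A3 receptor, was at 25.9 and 21.1 FPKM in Th1 libraries, 2.73 to 5.80 FPKM in Th2 and Th17 libraries and no more than 0.254 FPKM in naive libraries. Both passed the filter through effector libraries alone. The share of Adora2a in the summed FPKM of the family went from 96.5% and 99.0% in naive libraries to 27.8% and 35.0% in Th1 cells, 9.63% and 15% in Th2 cells, and 29.9% and 33.4% in Th17, while the sum itself was 5.76 and 7.16 FPKM in naive libraries and 17 to 39.9 FPKM in effector libraries. Adora3 made up 64.9% and 58.0% in Th1, and Adora2b 45.9% to 61.9% in Th2 and Th17. The exons of Adora3 share 779 bases, 20.9% of their length, with Tmigd3 on the same strand, so its level is uncertain by reads that could belong to that gene. Its deposited row is also longer than the gene. The row spans chr3:105870858-105924042, whereas the GENCODE annotation ends Adora3 at 105908926. Reads from beyond the gene may therefore be included, and the Adora3 levels and shares given here are uncertain. Adora1 was under 1 FPKM in every library.

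Ada, the adenosine deaminase gene (chr2:163726584-163750177, minus strand), fell in every effector subset. It was at 8.90 and 9.13 FPKM in naive cells, 4.71 and 6.35 in Th1 cells, 1.80 and 2.15 in Th2 cells, and 1.88 and 2.24 in Th17 libraries. Th2 and Th17 libraries overlapped, and Th1 lay between them and naive libraries. Relative to naive cells the difference was -0.63 in Th1 (SE 0.14, limma adjusted p = 0.00688), -1.76 in Th2 (adjusted p = 3.91e-05) and -1.71 in Th17 (adjusted p = 4.68e-05) on the log2(FPKM + 1) scale. Th1 exceeded Th2 by 1.13 (limma adjusted p = 0.00103) and Th17 by 1.08 (adjusted p = 0.00204), and the difference of 0.04 between Th17 and Th2 did not pass (adjusted p = 0.834). Dpp4, or CD26, the surface protein that binds extracellular adenosine deaminase, went up as Ada went down, from 9.07 and 8.92 FPKM in naive to between 22.2 and 35.6 FPKM in effector libraries (difference 1.85 in Th17 against naive, limma adjusted p = 3.12e-06).

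Adk, the adenosine kinase gene (chr14:21052574-21448569, plus strand), was highest in Th2 cells. Libraries gave 10.7 and 12.2 FPKM in naive cells, 14.6 and 13.6 in Th1 cells, 45.8 and 39.3 in Th2 cells, and 17.7 and 18.3 in Th17. No groups overlapped, and the order Th2, Th17, Th1, naive held throughout, but the lower neighbours differed little. Adk rose relative to naive cells in Th2 by 1.80 (SE 0.11, limma adjusted p = 8.96e-06) and in Th17 by 0.61 (adjusted p = 0.00215), whereas 0.28 in Th1 did not pass (adjusted p = 0.058). That Th1 difference did pass with median scaling (limma adjusted p = 0.0171) or quantile normalization (adjusted p = 0.0362). It also passed when either Th2 library was left out (adjusted p = 0.0466 and 0.0465). Th1 against Th2 was -1.53 (limma adjusted p = 7.62e-05), Th17 against Th2 was -1.19 (adjusted p = 0.000341), and Th1 against Th17, at -0.33, did not pass (adjusted p = 0.068). The FPKM ratio of Adk to Ada was 1.21 and 1.33 in naive libraries, 3.10 and 2.14 in Th1 cells, 25.5 and 18.3 in Th2 cells, and 9.44 and 8.15 in Th17, and the 4 groups did not overlap in it.

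**Figure D3:**
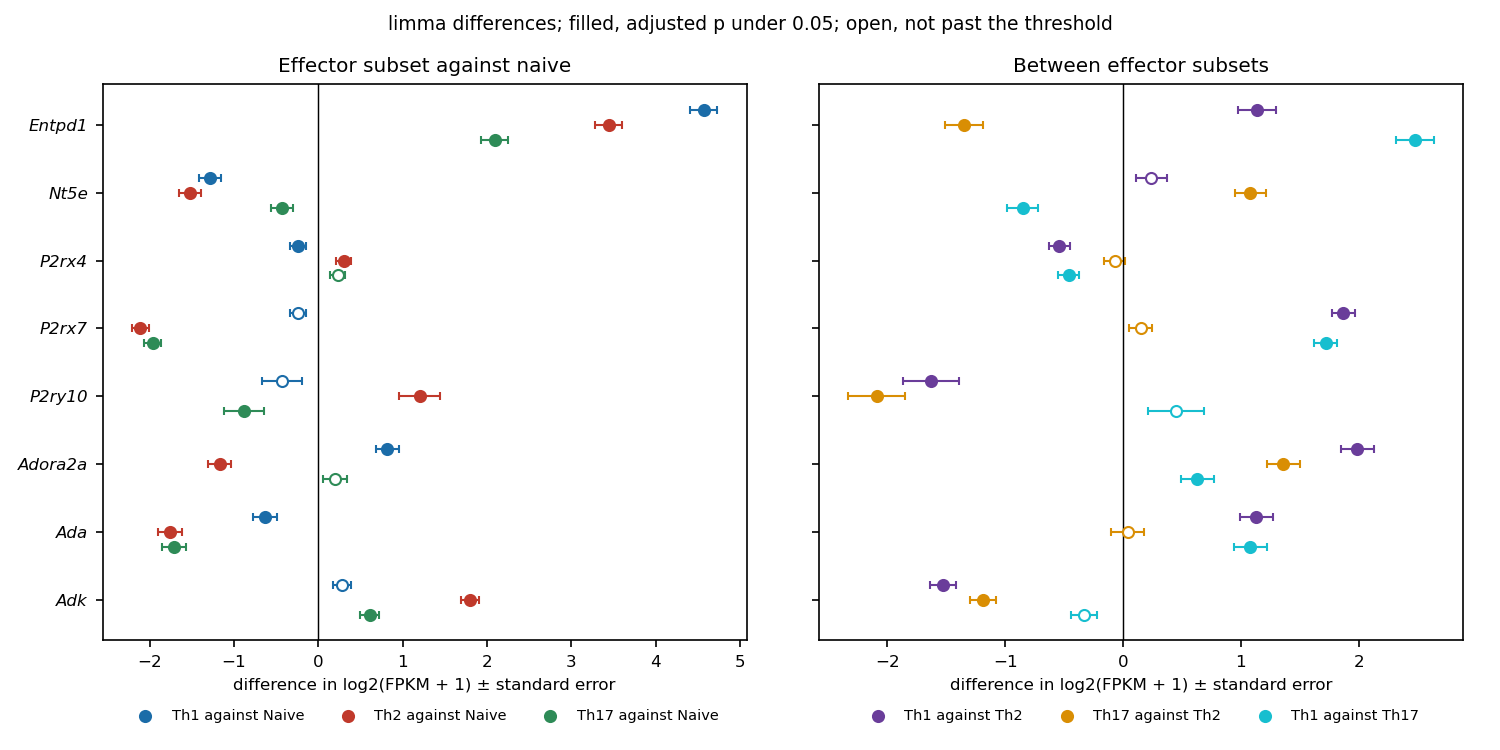
Difference in log2(FPKM + 1) with its standard error (horizontal axes) for each gene, against naive cells (left) and between effector subsets (right), filled where the limma adjusted p is under 0.05. Entpd1 lies far to the right against naive cells (4.57 in Th1), P2rx7 and Ada fall together in Th2 and Th17, and P2ry10 and Adk lie to the left wherever Th2 is the reference.

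P2rx7 and Ada were the genes of the 8 whose levels ran closest together (Pearson r = 0.969 over 8 libraries), and P2ry10 and Adk, both highest in Th2, had r = 0.71. Their promoters, 250 bases before to 50 bases after the RefSeq start site in GRCm38.p6, are shown for that reason, each in the direction of its gene. Capitals mark matches on either strand to 5 motifs that were chosen after the values had been seen. The P2rx7 window is chr5:122643677-122643976, that of Ada chr2:163750190-163750489 on the minus strand, that of P2ry10 chrX:107089083-107089382 and that of Adk chr14:21052324-21052623.
P2rx7: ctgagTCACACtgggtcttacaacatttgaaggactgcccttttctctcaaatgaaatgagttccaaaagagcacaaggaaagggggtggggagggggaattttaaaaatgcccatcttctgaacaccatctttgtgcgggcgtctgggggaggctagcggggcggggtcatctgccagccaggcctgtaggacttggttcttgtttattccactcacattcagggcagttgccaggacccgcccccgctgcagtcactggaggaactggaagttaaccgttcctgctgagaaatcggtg
Ada: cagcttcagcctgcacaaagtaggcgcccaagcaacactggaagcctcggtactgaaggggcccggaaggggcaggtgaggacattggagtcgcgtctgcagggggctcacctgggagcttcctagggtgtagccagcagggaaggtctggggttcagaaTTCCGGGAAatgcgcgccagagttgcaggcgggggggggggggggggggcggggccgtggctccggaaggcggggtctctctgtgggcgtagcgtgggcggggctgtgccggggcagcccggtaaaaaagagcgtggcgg
P2ry10: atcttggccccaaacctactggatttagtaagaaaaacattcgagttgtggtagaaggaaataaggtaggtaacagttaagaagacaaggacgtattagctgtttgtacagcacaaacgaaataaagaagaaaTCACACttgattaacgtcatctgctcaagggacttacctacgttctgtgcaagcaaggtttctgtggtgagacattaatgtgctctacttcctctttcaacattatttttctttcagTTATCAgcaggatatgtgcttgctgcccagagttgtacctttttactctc
Adk: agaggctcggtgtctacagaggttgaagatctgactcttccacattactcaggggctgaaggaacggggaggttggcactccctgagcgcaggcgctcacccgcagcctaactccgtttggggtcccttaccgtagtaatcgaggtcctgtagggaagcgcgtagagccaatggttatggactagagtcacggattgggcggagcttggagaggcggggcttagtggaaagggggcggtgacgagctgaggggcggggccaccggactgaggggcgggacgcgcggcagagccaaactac
With the start site counted as 0, the P2rx7 window holds the T-box letters TCACAC at -245 to -240, and the Ada window holds a STAT match (TTCNNNGAA) at -90 to -82. The P2ry10 window holds TCACAC at -117 to -112 and the GATA variant TGATAA, read on the opposite strand, from 0 to 5. The GATA letters AGATAA and the CRE letters TGACGTCA were not in these 4 windows. Entpd1, Nt5e, P2rx4 and Adk have none of the 5 motifs in their windows. The table of promoters held 7 of the 8 genes, without Adora2a. Of 32851 promoters searched in the same way, 14.5% hold TCACAC, 8.30% TTCNNNGAA, 9.05% TGATAA, 11.2% AGATAA and 1.79% TGACGTCA. P2rx7 and Ada share none of these motifs in their windows, and no matches overlap each other.

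Beyond the 8 genes, 56 further genes of purine release, sensing, uptake and salvage were listed by role, of which 38 passed the filter. Some passed only through the group in which they were high, so the 25 with a mean of at least 1 FPKM in every group are counted here. They are set beside the 9278 of all tested genes that meet the same condition. In Th1 against naive cells 11 of the 25 were higher and 10 lower, where 28.6% of those genes were higher and 36.1% lower. In Th2 against naive 8 were higher and 11 lower, beside 25.9% and 42.1%, and in Th17 against naive 12 and 9, beside 31.9% and 32.1%. Between subsets, 10 were higher and 6 lower in Th1 against Th2, beside 26.8% and 14.3%. Th17 against Th2 had 10 higher and 5 lower, beside 31.3% and 10.2%, and Th1 against Th17 had 6 higher and 8 lower, beside 7.56% and 12.7%. The median of the 25 is set beside that of all 11198 tested genes, which were not held to the same condition. It was 0.27 in Th17 against naive, beside 0.08 over all tested genes, and 0.03 in Th2 against naive, beside -0.11. In the other comparisons it lay nearer to that of all tested genes.

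**Figure D4:**
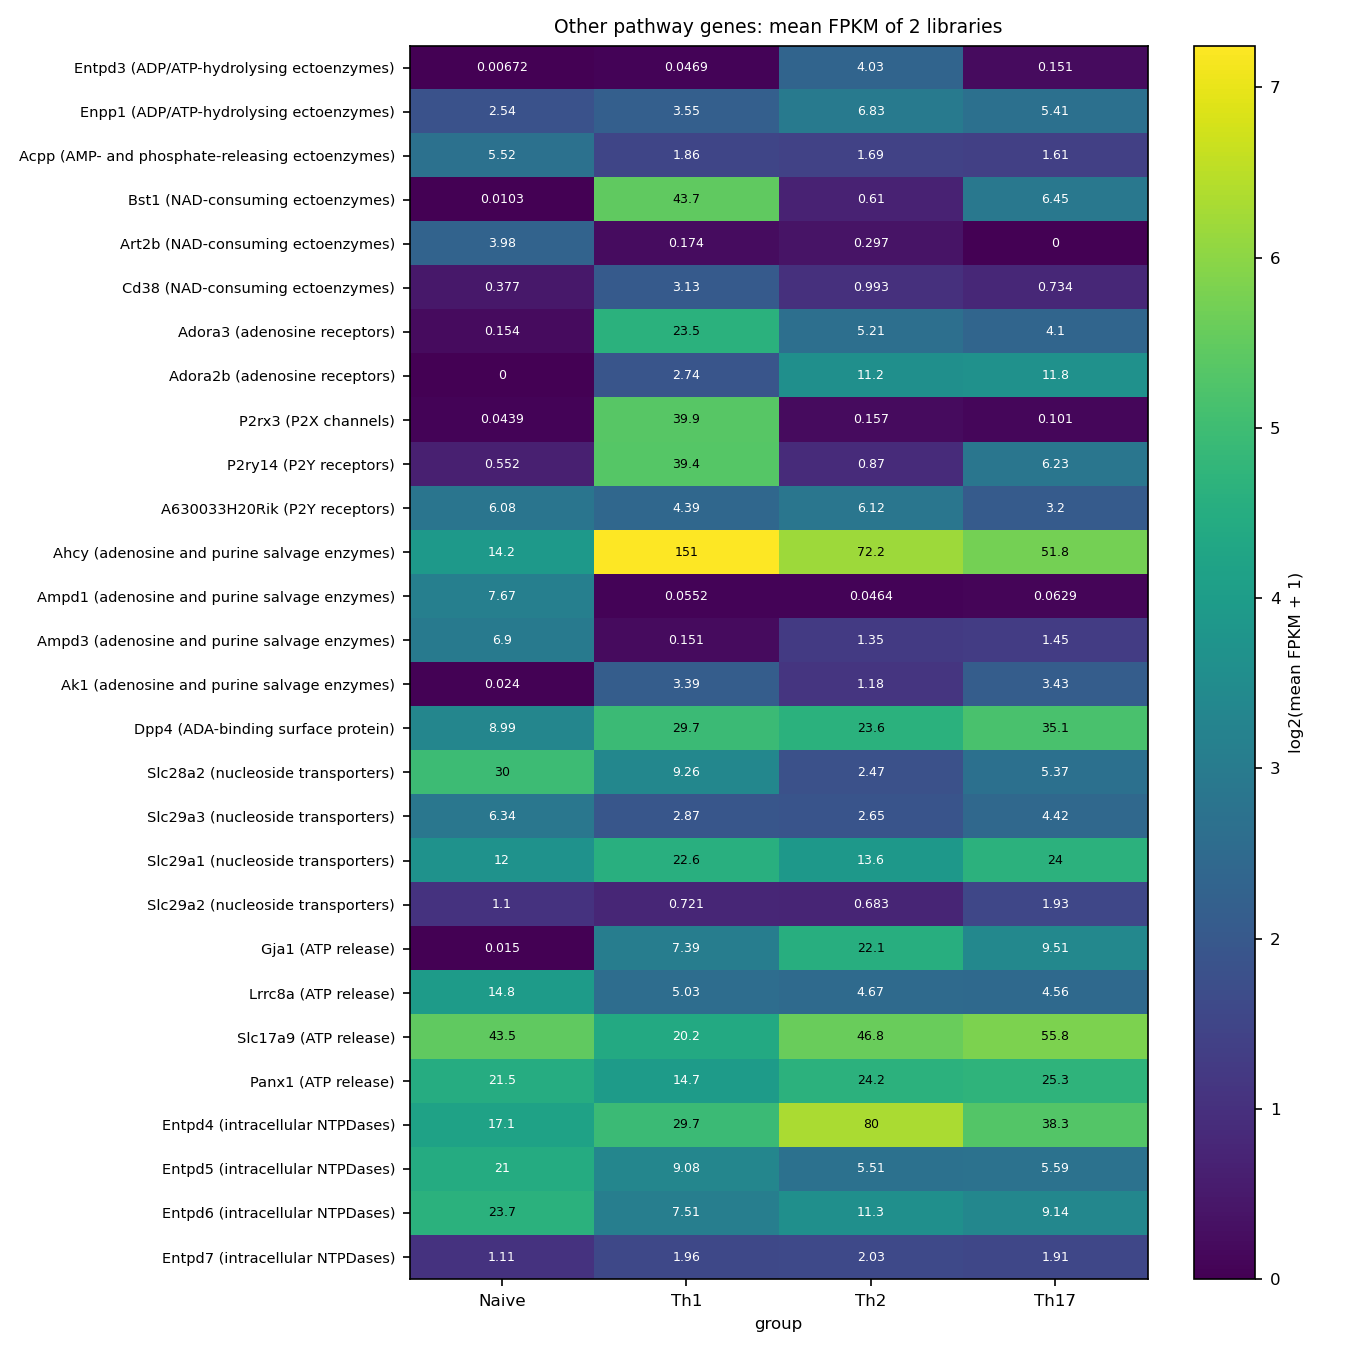
Mean FPKM over 2 libraries (numbers in the cells, colour on a log2(mean FPKM + 1) scale) of the other pathway genes named in the text, by role and group. P2rx3, Bst1, P2ry14 and Adora3 are high in the Th1 column, Entpd3 and Gja1 in the Th2 column, and Ampd1 is near 0 in every effector column.

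Salvage enzymes moved in both directions. Ampd1 and Ampd3, AMP deaminases, were at 8.27 and 7.08 FPKM and at 7.03 and 6.78 FPKM in naive libraries and at no more than 0.0969 FPKM and 1.48 FPKM in effector libraries. Ahcy, which releases adenosine from S-adenosylhomocysteine, was at 13.3 and 15.1 FPKM in naive cells, 137 and 164 in Th1 cells, 73.6 and 70.7 in Th2 cells, and 46.0 and 57.7 in Th17 libraries (difference 3.32 in Th1 against naive, limma adjusted p = 2.26e-06). Ak1, an adenylate kinase, was at 0.0240 and 0.0241 FPKM in naive libraries and at 0.988 to 3.94 FPKM in effector libraries. Ampd1, Ampd3 and Ak1 passed the filter only through the groups where they were high. Of the other 11 salvage enzymes tested beside Ada and Adk, 6 were higher and 2 lower than naive in Th1 cells, where 28.6% and 36.1% of all genes with a mean of at least 1 FPKM in every group were higher and lower. In Th2 cells 4 were higher and 5 lower, beside 25.9% and 42.1%, and in Th17 cells 6 and 2, beside 31.9% and 32.1%.

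Nucleoside transporters and routes of ATP release split as well. Slc28a2, a concentrative transporter that takes up purine nucleosides, was at 29.1 and 30.9 FPKM in naive cells, 8.55 and 9.97 in Th1 cells, 2.73 and 2.22 in Th2 cells, and 5.11 and 5.63 in Th17 libraries, and fell by 3.16 in Th2 (limma adjusted p = 8.96e-07). Slc29a1, the equilibrative transporter ENT1, was at 12.3 and 11.7 FPKM in naive and 22.9 and 25.2 FPKM in Th17 libraries (difference 0.94, limma adjusted p = 0.000476). Slc29a3 was higher in Th17 than in Th2 cells by 0.56 (limma adjusted p = 0.00795), and Slc29a2 was at 2.05 and 1.81 FPKM in Th17 and at 0.707 and 0.658 FPKM in Th2 libraries. Gja1, the gap junction protein connexin 43, was at 0.0301 FPKM and 0 in naive libraries and at 17.9 and 26.3 FPKM in Th2 libraries, with 6.60 to 9.87 FPKM in Th1 and Th17. Slc17a9, the vesicular nucleotide transporter, and Panx1, the pannexin 1 channel gene, were both lowest in Th1 cells, at 20.3 and 20.2 FPKM and at 14.2 and 15.1 FPKM, against 41.8 to 58.5 FPKM and 21.2 to 26.0 FPKM in the other groups. Lrrc8a, a subunit of volume-regulated anion channels, fell in every effector subset, from 12.8 and 16.8 FPKM to between 4.04 and 5.66 FPKM, but 66.2% of its exon bases are shared with Gm28035 on the same strand. Slc28a3 and Panx2 were under 1 FPKM in every library.

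Of the NTPDases inside the cell, relatives of CD39 in the secretory pathway, Entpd4 was highest in Th2 (76.9 and 83.1 FPKM, against 16.3 and 18.0 FPKM in naive libraries, difference 2.16, limma adjusted p = 1.79e-06). Its values are sums of 2 rows, and Gm16867 overlaps 26.1% of its exon bases on the opposite strand, so they are uncertain. Entpd5 and Entpd6 fell in all 3 subsets, from 21.2 and 20.7 FPKM to between 5.24 and 9.44 FPKM and from 23.0 and 24.4 FPKM to between 7.42 and 11.3 FPKM. Entpd7 was at 1.18 and 1.04 FPKM in naive libraries and rose by 0.52 in Th2 (limma adjusted p = 0.0053).

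Genes whose log2(FPKM + 1) followed each of the 8 most closely over the 8 libraries were sought among the other 11197 tested genes, as a description in which the points share 4 groups. Adk was most like Il4, the Th2 cytokine gene (r = 0.9956), then Fam132a and Papss2. For P2rx7 the nearest genes were D8Ertd82e (r = 0.9986), BC094916 and Nedd9, and for Ada they were Antxr2 (r = 0.9934), Kbtbd11 and H2-Q4. Entpd1 was nearest to Tifab (r = 0.9925), Gm5111 and Pim2, and Nt5e to Wls (r = 0.9967), Prrt2 and Clpp. Adora2a was nearest to Mctp2 (r = 0.9889), Anxa6 and Ano10, P2rx4 to Pitrm1 (r = 0.9876), Fam134a and 1190002H23Rik, and P2ry10 to Atl2 (r = 0.975), Tigd2 and Gopc. Such values are common with 4 groups, since between 9 genes (for P2ry10) and 169 genes (for Nt5e) had an r over 0.95.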

How the data were processed

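RNA sequencing values of 8 mouse libraries were used, 2 each of naive CD4 T, Th1, Th2 and Th17 cells, grouped by the sample labels. Per the labels and the methods, the authors aligned reads to mm10 with Bowtie 0.12.8 and TopHat 1.3.2, and deposited FPKM per gene with its interval from Cufflinks 2.0.2. The annotation is not given in the sources used here, and the labels name a stranded kit where the methods name an unstranded one, so overlapping genes are reported as uncertain. FPKM carries no further scaling between libraries and is a share of each library.

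Rows sharing a symbol were summed (23746 rows, 23284 symbols). Values were tested as log2(FPKM + 1), so that differences of low genes are understated, over the 11198 genes that averaged 1 FPKM or more. Because the files hold no counts, limma 3.58.1 in R 4.3.3 (eBayes on an lmFit, trend allowed) was fitted to all 8 libraries with 4 group means. Tests were two-sided, adjusted by the Benjamini-Hochberg method over all tested genes, with a threshold of 0.05. The fit was also run on simulated data with independent libraries and few changed genes. The present data differ on both points, so no conclusion is drawn from that run. Python 3.11.15 handled tables, using pandas 2.3.3 and numpy 2.4.6. Implied fragments of a gene were taken as the square of 2 times FPKM over the half-width of its interval. Where the lower bound was 0, the distance from FPKM to the upper bound was used. They stand for fragments only where the interval reflects counting error alone. For P2rx7 it did not, with 34 implied at 15.9 FPKM in naive replicate 1 and 968 at 16.4 FPKM in naive replicate 2.

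Same-numbered libraries deviated together (r of replicate differences 0.138 to 0.294 over 6 pairs of groups). The labels do not say whether they were cultured together, and a block on the replicate number is given where it changes a call. Alternatives were the pseudocount, the filter, scaling, the samples in the fit, the block and leaving out each library. The members, gene lists and tests were chosen with earlier results of these data known. Other pathway genes are named as the up to 4 of each role with the largest difference past the threshold, plus those under 1 FPKM in every library, and genes like a member as the 3 with the highest r. Trac and Ly6g, 2 of the marker genes, were not matched, and some marker genes are not reported here. Gene positions are those deposited, written from 1, and promoters come from RefSeq in GRCm38.p6. The age of the mice is taken from the methods. No genome sequence was used.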

Additional observations from a re-analysis of the deposited data

Results flagged for a closer look

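Differences between effector subsets were tested directly, which is the same as comparing their changes from the shared naive libraries, and each gene below passed limma with an adjusted p under 0.05. The members Entpd1 and Nt5e passed the filter on low values only through groups where they were high, so their values are descriptions. The same holds for Entpd3, Bst1, Cd38, P2ry14, Adora2b, Adora3, P2rx3, Ampd3, Ak1, Slc29a2 and Gja1. Values are differences in log2(FPKM + 1) of the comparison with the largest size for that gene. All 8 members were among the genes past the threshold, with Entpd1 at 2.48 in Th1 against Th17 and Nt5e at 1.08 and P2ry10 at -2.09 in Th17 against Th2. In Th1 against Th2, P2rx4 was at -0.54, P2rx7 at 1.87, Adora2a at 1.99, Ada at 1.13 and Adk at -1.53.

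Of the other pathway genes, Th1 against Th2 gave Entpd3 at -2.26, Enpp1 at -0.78, Bst1 at 4.80, P2ry14 at 4.44, Slc28a2 at 1.56, Gja1 at -1.44, Entpd4 at -1.40, Entpd5 at 0.63 and Entpd6 at -0.53. Th1 against Th17 gave Cd38 at 1.26, Adora3 at 2.31, Adora2b at -1.77, P2rx3 at 5.20, Ahcy at 1.53, Ampd3 at -1.09, Slc17a9 at -1.42 and Panx1 at -0.75. In Th17 against Th2, A630033H20Rik was at -0.77, Ak1 at 1.03, Dpp4 at 0.55, Slc29a3 at 0.56, Slc29a1 at 0.79 and Slc29a2 at 0.80.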

How the results depend on the processing

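Over the other settings, the 8 genes gave 900 differences, of which 846 kept sign and call, 30 lost the call, 17 gained it and 7 changed sign. The sign changes were in uncalled differences near 0 of Th17 against Th2. P2rx7 went to -0.00285 with median scaling and -0.0797 with quantile normalization, and Ada to -3.6e-05 on the TPM scale, -0.0981 and -0.248 with those scalings, and to between -0.0448 (without Th17 replicate 2) and 0.128 when a library was left out (-0.0437 without Th2 replicate 1). With the replicate block 3 calls were gained, those given in the text, and no other call changed. A mean FPKM of at least 5 left out Nt5e and Ada, with 3 members past the threshold in Th1 against naive and 19 other pathway genes in Th2 against naive, because fewer genes were tested. Leaving out a library gave 13 to 20 other pathway genes in Th1 against Th17, against 22 with all libraries. The count was 14 without Th1 replicate 1, 13 without Th17 replicate 1 and 15 without either of the other libraries of these groups.

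Leaving out the 3 effector libraries of replicate number 1 was an alternative chosen after seeing the data. It leaves 1 library per effector group, whose spread is then assumed to be that of the naive pair. Calls were lost among all tested genes as well as among the members, so they are not counted. All member differences kept their direction, with Entpd1 at 2.75 in Th1 against Th17 and P2ry10 at -2.28 in Th17 against Th2. Adk was at -1.47 in Th1 against Th2. Scaling moved the share of all calls that were higher, in Th2 against naive from 45.1% to 55.1% (median), in Th17 against naive from 55.7% to 44.2% (quantile), in Th1 against Th2 from 61.8% to 50% (median), in Th17 against Th2 from 72.6% to 50.7% (quantile) and in Th1 against Th17 from 36.5% to 49.7% (quantile). In Th1 against naive it was 50.3%, with 42.8% (quantile) and 55.1% (median). Depth limits Nt5e most, with 15 to 194 implied fragments per library.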
